A study of Homo sapiens and Mus musculus with 8 samples.

Results

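Keratin transcripts were read in human colorectal cancer cells grown in culture and as xenografts. The 10 keratin genes described are KRT8, KRT18, KRT19 and KRT7 of simple epithelium, KRT20 and KRT23 of the gut, KRT80, which is found in many epithelia, and KRT6A, KRT6B and KRT17 of stratified epithelium. They were taken by gene identifier from a table of 60483 human genes, and all 10 passed the filter of at least 1 CPM in at least 2 libraries. CPM is the usual count relative to the library's total. The filter used it unscaled, while the levels given below are also scaled for library composition (TMM). Poly(A) RNA was sequenced from KM12 and LS174T, both colorectal cancer lines, each as cultured cells and as a cell line-derived xenograft, a tumor grown from the human line in a mouse. The 4 KM12 libraries were a GNAS knockout and its parental line, which carries GNAS R201H, each as xenograft and as culture. The 4 LS174T libraries all carried the label GNAS R201H and were Dox(+) or Dox(-), each as xenograft and as culture. GNAS encodes the stimulatory G protein alpha subunit, and R201H is an activating mutation of it. The labels do not say what Dox induced, how the knockout was made, whether it is 1 clone, or the mouse strain, and no LS174T library had Dox without the GNAS label, so that Dox and GNAS cannot be told apart there.

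Keratins are the intermediate filament proteins of epithelial cells. Each filament pairs an acidic type I chain with a basic type II chain, so the simple epithelial chains KRT18 and KRT19 (type I) pair with KRT8 and KRT7 (type II), while KRT17 (type I) and KRT6A and KRT6B (type II) are induced in stratified epithelium after wounding. In the colon, KRT8, KRT18 and KRT19 are present along the whole crypt and KRT20 marks the differentiated cells near the surface. KRT7 is a keratin of ducts and glands that the normal colon largely lacks, and colorectal tumors are typically KRT20-positive and KRT7-negative.

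Every group had 1 library. Total counts ran from 15924846 to 23124811 in the 4 xenografts and from 31868711 to 37735085 in the 4 cultures. No single pair of libraries has a replicate check. Intervals on a pair ratio cover counting error only. The fitted tests take each gene's own spread from the disagreement between the 4 pairs, which differ in line, environment or GNAS state. edgeR then moderates this spread toward the trend over all tested genes, so its p-values also rest on that shared estimate. GNAS itself had 901 CPM in the KM12 knockout xenograft, against 1385 CPM in the parental xenograft, and 298 CPM in the knockout culture, against 1118 CPM in the parental culture. In LS174T it had 690 CPM in the Dox(+) xenograft, against 584 CPM in the Dox(-) xenograft, and 1743 CPM in the Dox(+) culture, against 690 CPM in the Dox(-) culture. All 10 markers of colorectal epithelium were measured, and their summed level was 1162 to 1724 CPM in KM12 and 2783 to 3575 CPM in LS174T. The lowest sum, 1162 CPM, was that of the KM12 parental xenograft, and 1724 CPM that of the knockout xenograft. The summed level of 6 fibroblast markers was 263 CPM in the KM12 parental xenograft, against 3.48 to 12.7 CPM in the other 7 libraries, and COL3A1 made up 219 CPM of it. That library stands apart on this measure, with COL1A1 at 29.1 CPM and LUM at 10.00 CPM, also above the other 7 libraries. The remaining markers did not stand apart. COL1A2 was at 3.71 CPM, against 3.44 CPM in the knockout xenograft, and DCN at 0.229 CPM. PDGFRB, at 0.457 CPM, was at its lowest there. Sums of the 4 endothelial markers stayed at or below 1.40 CPM, with KDR at 0 in every library, and those of the 5 leukocyte markers at or below 8.64 CPM. The labels give the mouse as the organism of the xenografts, and mouse reads that align to human genes may have entered the human counts. How such reads were treated is not given in the sources used here.

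Some keratins share long stretches of sequence with other genes, which limits how far their reads can be told apart. KRT6A (chr12:52487174-52493257, minus strand) and KRT6B (chr12:52446651-52452126, minus strand) are neighbours whose coding sequences, 1695 bases each, differ at 43 positions and are 97.5% identical, with a longest identical run of 269 bases. The 90 bases from coding position 656 to 745 are shown because they hold the densest run of differences, 10 in all, and therefore the positions at which a read can be assigned to 1 gene. Capitals mark the differing bases, in GENCODE 29 transcripts on GRCh38.
KRT6A: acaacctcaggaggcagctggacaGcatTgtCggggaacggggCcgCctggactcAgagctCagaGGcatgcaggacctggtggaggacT
KRT6B: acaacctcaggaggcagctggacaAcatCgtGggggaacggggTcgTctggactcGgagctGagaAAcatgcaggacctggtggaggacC

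Of the 100-base windows along each gene's principal transcript, 18.2% in KRT6A and 24.6% in KRT6B were also found in another gene's transcript, KRT6C among them. KRT8 shared 5.92% of its 100-base windows and KRT18 none, although 32.7% of KRT8 and 31.8% of KRT18 windows of 50 bases recur, mostly in processed pseudogenes. KRT17 shared 15.98% of its 50-base windows and 0.322% of its 100-base windows. KRT20 and KRT23 shared none at either length. KRT8 and KRT18 also overlap on opposite strands over 525 exonic bases, KRT7 overlaps the antisense gene KRT7-AS over 282 bases, and KRT23 an antisense transcript over 186 bases. The library description marks no strand, so reads in these overlaps cannot be told apart and these values are uncertain to that extent.

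The keratin pool of both lines was simple epithelial. KRT8 (type II, chr12:52897187-52949954), KRT18 (type I, chr12:52948871-52952901) and KRT19 (type I, chr17:41523617-41528308) together took 94.9% to 98.7% of the counts of the 10 genes in every library. On a per-length scale, the mean over the 8 libraries was 855 CPM per kb of exon for KRT8, 821 for KRT18 and 514 for KRT19. KRT7 (chr12:52232520-52252186) followed with a mean level of 33.0 CPM per kb, KRT17 (chr17:41619441-41624842) with 11.5, KRT80 (chr12:52168996-52192000) with 10.6 and KRT20 (chr17:40875941-40885227) with 5.14. At the low end were KRT6B with 1.52, KRT6A with 1.18 and KRT23 (chr17:40922696-40937634) with 0.339 CPM per kb. The order was the same per kb of 1 principal transcript, but the ranges over libraries overlap for many neighbours in it. The gap between KRT8 and KRT18 depends on the length used. Within libraries KRT8 stood at 0.821 to 1.29 of KRT18 per kb of exon. Per kb of principal transcript it stood at 1.29 to 2.03, above KRT18 in every library.

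**Figure D1:**
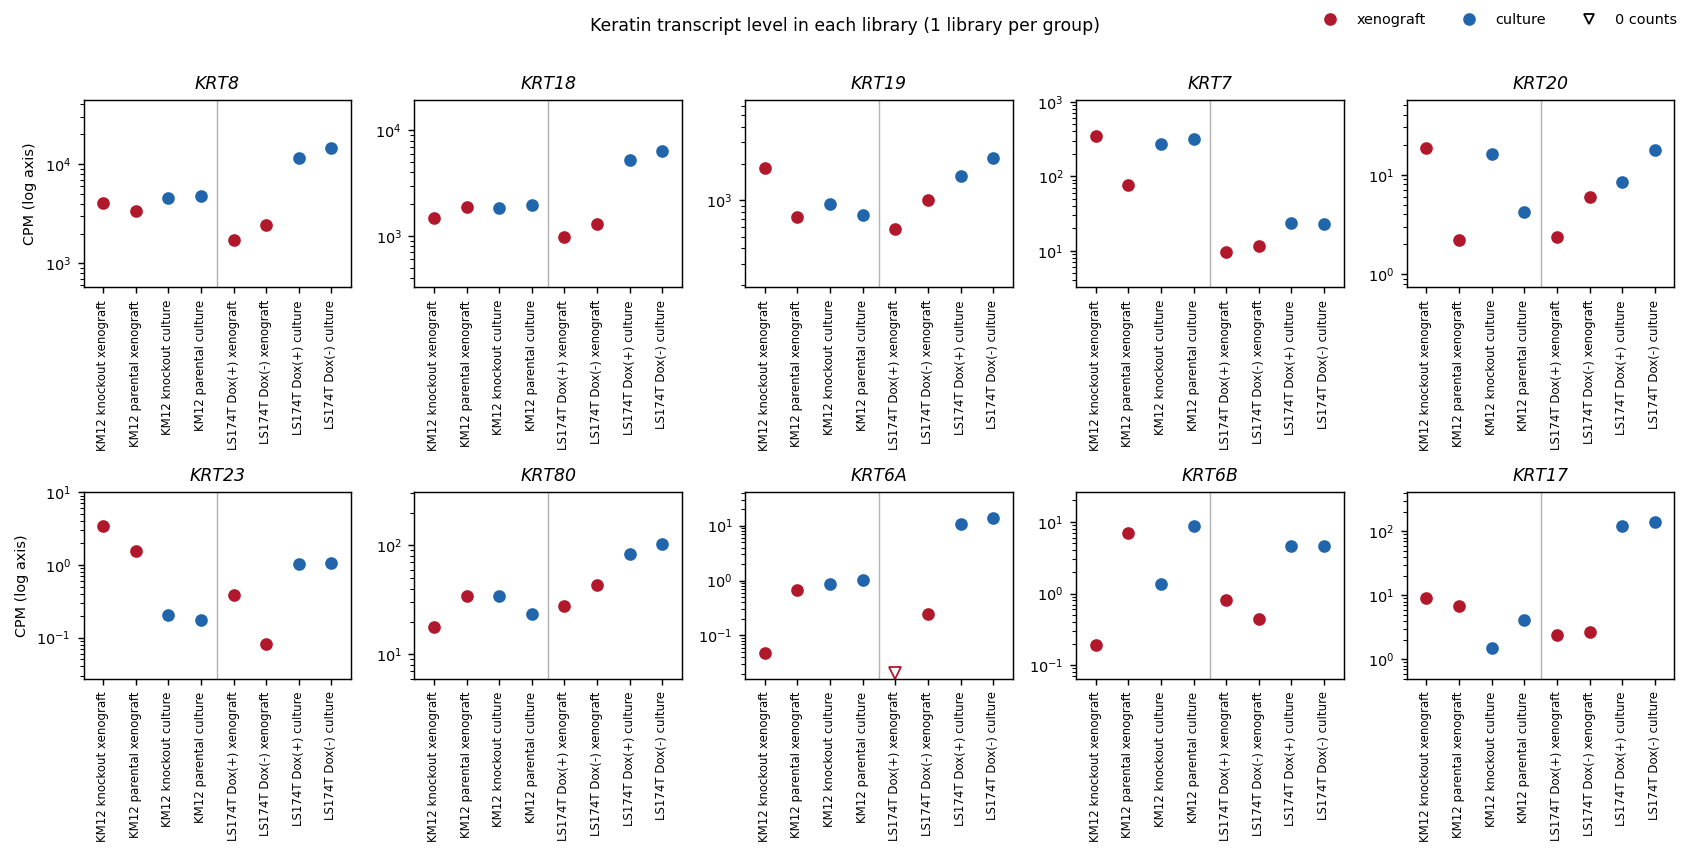
Level of each of the 10 keratins in each of the 8 libraries, in CPM on a log axis, with KM12 left and LS174T right of the grey line, xenografts in red and cultures in blue; the open triangle is a library with 0 counts. KRT8, KRT18, KRT17 and KRT6A are highest in the 2 LS174T cultures, and KRT7 is higher in all 4 KM12 libraries than in all 4 LS174T libraries.

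The 10 keratins took 0.367% and 0.512% of all counts in the LS174T Dox(+) and Dox(-) xenografts, against 1.74% and 2.13% in the Dox(+) and Dox(-) cultures. In KM12 the shares were 0.858% and 0.671% in the knockout and parental xenografts, against 0.691% and 0.714% in the knockout and parental cultures. The lowest and the highest share of the series were thus both in LS174T, and the 4 KM12 libraries lay between them. In bulk RNA, fewer keratin-rich cells and less keratin RNA per cell cannot be told apart.

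The balance of the chains differed as well. Per kb of transcript, type II keratins stood at 0.928 and 0.948 of the type I keratins in the KM12 knockout and parental xenografts, against 1.23 and 1.33 in the matching cultures. The ratio was 0.788 and 0.751 in the LS174T Dox(+) and Dox(-) xenografts, against 1.19 and 1.20 in the matching cultures. All 4 xenografts lay below all 4 cultures; the ratio was examined after the levels were seen and is given without a test. The counts of KRT19 relative to KRT18 were higher in the xenograft of all 4 pairs, but almost equal in the KM12 parental pair. KRT19 had 1.25 counts per KRT18 count in the KM12 knockout xenograft, against 0.507 in its culture, and 0.385 in the parental xenograft, against 0.381 in its culture. In LS174T the figure was 0.585 in the Dox(+) xenograft, against 0.299 in its culture, and 0.766 in the Dox(-) xenograft, against 0.346 in its culture.

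**Figure D2:**
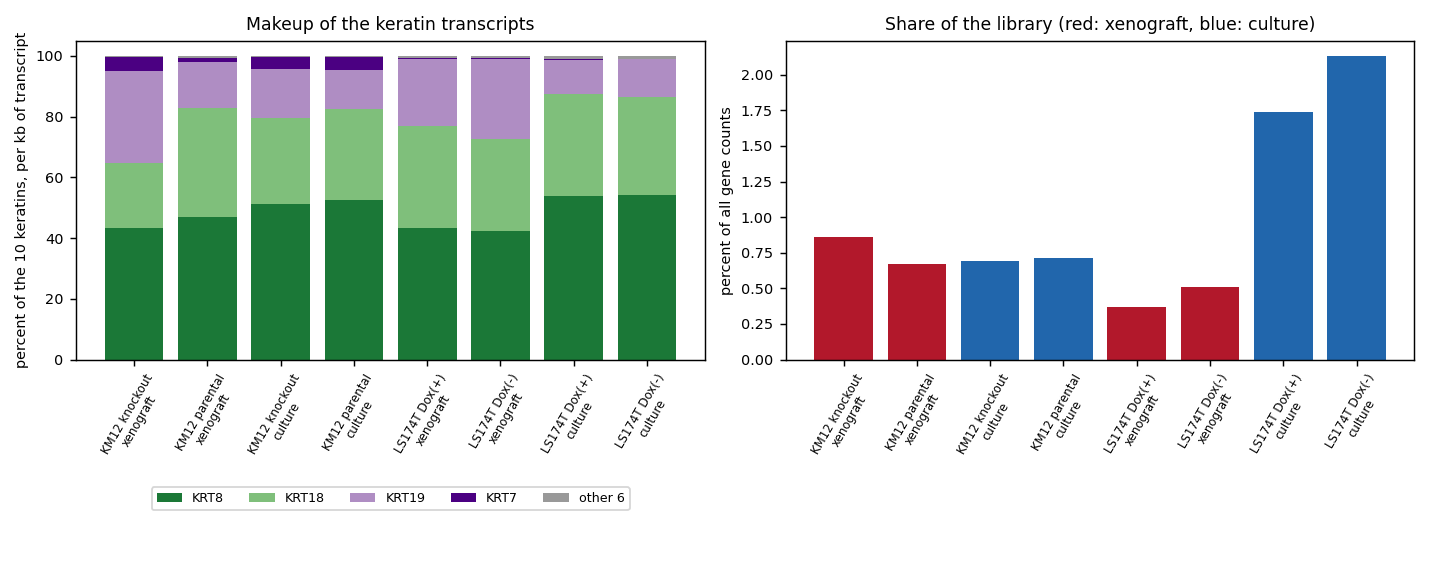
Left, makeup of the keratin transcripts of each library in percent, per kb of principal transcript, for KRT8, KRT18, KRT19, KRT7 and the other 6 keratins together. Right, percent of all gene counts in the 10 keratins, which is 0.367% to 0.512% in LS174T xenografts (red) and 1.74% to 2.13% in LS174T cultures (blue).

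In LS174T, keratin transcripts were lower in the xenografts than in the cultures across every class. Of the 10 keratins, 9 fell and 0 rose in the quasi-likelihood test of edgeR, Benjamini-Hochberg adjusted over all 16070 tested genes (adjusted p below 0.05). By the same test 22.5% of all genes were lower in LS174T xenografts and 23.4% were higher. The median log2 difference, xenograft minus culture, was -2.32 over the 10 keratins and 0.03 over all tested genes. KRT6A, counted among the 9, passed the filter only through the LS174T cultures, so a high level there was a condition of its being tested.

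The core pair KRT8 and KRT18 fell together. KRT8 had 1722 and 2443 CPM in the Dox(+) and Dox(-) xenografts, against 11557 and 14665 CPM in the Dox(+) and Dox(-) cultures. KRT18 had 981 and 1300 CPM in the xenografts, against 5284 and 6405 CPM in the cultures. The groups did not overlap for either gene, and KRT8 fell 6.34-fold (log2 difference -2.66 ± 0.15, SE, 2 pairs; edgeR adjusted p = 3.65e-05) and KRT18 5.15-fold (-2.36 ± 0.15; edgeR adjusted p = 5.35e-05). KRT19, the type I chain that has almost no tail domain, fell less. It had 574 and 996 CPM in the xenografts, against 1577 and 2215 CPM in the cultures, a 2.47-fold fall (log2 difference -1.30 ± 0.25, SE; edgeR adjusted p = 0.00685). KRT7 had 9.68 and 11.7 CPM in the xenografts, against 23.7 and 23.1 CPM in the cultures, and was the 1 keratin that did not pass (log2 difference -1.13 ± 0.72, SE; edgeR adjusted p = 0.291).

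The wound-type keratins KRT17 and KRT6A showed the widest gaps of the 10. KRT17 had 2.37 and 2.72 CPM in the Dox(+) and Dox(-) xenografts, from 49 and 67 counts, against 122 and 140 CPM in the cultures. It fell 51.2-fold (log2 difference -5.68 ± 0.47, SE; edgeR adjusted p = 0.000868), and its ratio was 0.0194 in the Dox(+) pair and 0.0195 in the Dox(-) pair. KRT6A had 0 and 6 counts in the xenografts, against 326 and 453 counts in the cultures, the only libraries in which it reached the filter's 1 CPM. With a floor of 3 counts for the empty library, KRT6A was at least 74.3-fold lower in the Dox(+) xenograft, and in the Dox(-) pair it stood at 0.0175 of the culture (95% counting interval 0.0064 to 0.0385; edgeR adjusted p over both pairs = 0.00253). KRT6B had 0.822 and 0.446 CPM in the xenografts, from 17 and 11 counts, against 4.57 and 4.54 CPM in the cultures (log2 difference -2.88 ± 0.58, SE; edgeR adjusted p = 0.00595). Since KRT6A and KRT6B share sequence, part of either count may belong to the other.

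The gut keratin KRT20 fell 3.22-fold in LS174T xenografts. It had 2.37 and 6.05 CPM in the Dox(+) and Dox(-) xenografts, against 8.50 and 17.7 CPM in the cultures (log2 difference -1.69 ± 0.33, SE; edgeR adjusted p = 0.00449). KRT23, a type I keratin described in gut tumors, had 8 and 2 counts in the xenografts, against 31 and 35 counts in the cultures (log2 difference -2.27 ± 0.69, SE; edgeR adjusted p = 0.0268). KRT80, a type II keratin found near cell junctions, had 27.8 and 43.3 CPM in the xenografts, against 83.0 and 104 CPM in the cultures (-1.41 ± 0.36; edgeR adjusted p = 0.0263). With either LS174T pair left out, 3 of the 9 calls held, those of KRT8, KRT18 and KRT17. These values rest on 1 LS174T pair, with each gene's own spread taken from the KM12 pairs. KRT6A then fell below the filter, and the edgeR adjusted p of KRT19, KRT20, KRT23, KRT80 and KRT6B was 0.0649 to 0.277. Without the block KRT6B did not pass either (edgeR adjusted p = 0.0661).

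In KM12 xenografts 2 of the 10 keratins rose and 0 fell, where 29.8% of all genes passed the same edgeR test, 14.3% higher and 15.5% lower. KRT23 had 3.39 and 1.54 CPM in the knockout and parental xenografts, from 70 and 27 counts, against 0.205 and 0.172 CPM in the cultures, from 7 and 5 counts. It rose 12.4-fold (log2 difference 3.63 ± 0.66, SE, 2 pairs; edgeR adjusted p = 0.00639). KRT23 passed the filter only through these KM12 xenografts, so a high level there was a condition of its being tested. KRT17 had 9.05 and 6.91 CPM in the xenografts, against 1.49 and 4.12 CPM in the cultures, a 3.09-fold rise (log2 difference 1.63 ± 0.44, SE; edgeR adjusted p = 0.0456). The groups did not overlap for either gene. KRT17 did not pass without either LS174T pair, which share the spread (edgeR adjusted p 0.105 and 0.108). Without the KM12 parental pair, whose xenograft had the high fibroblast sum, its log2 difference was 2.61. Without the knockout pair it was 0.75. These last values each rest on 1 KM12 pair. KRT23 fell below the filter without either KM12 pair and was not tested there.

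KRT8 had 4053 and 3371 CPM in the KM12 knockout and parental xenografts, against 4518 and 4726 CPM in the cultures (log2 difference -0.32 ± 0.14, SE; edgeR adjusted p = 0.128). KRT18 had 1466 and 1881 CPM in the xenografts, against 1845 and 1978 CPM in the cultures (-0.20 ± 0.14; edgeR adjusted p = 0.308). Both genes were a little lower in each KM12 xenograft than in its own culture. The KM12 pairs went opposite ways for KRT19, KRT7, KRT20 and KRT80. KRT20 stood at 1.16 times its culture in the knockout xenograft and at 0.523 times in the parental xenograft, and KRT80 at 0.519 and 1.46 times. KRT19 stood at 1.96 times its culture in the knockout xenograft and at 0.960 times in the parental xenograft. KRT7 stood at 1.29 times its culture in the knockout xenograft, with 349 CPM, and at 0.245 times in the parental xenograft, with 77.2 CPM. The parental xenograft is the library with the fibroblast sum of 263 CPM, and the part of that signal in the KRT7 and KRT19 values was not tested. KRT80 had 17.9 and 34.5 CPM in the knockout and parental xenografts, against 34.5 and 23.7 CPM in the cultures, and these ranges overlapped. KRT6A had 1 and 12 counts in the xenografts, against 30 and 30 counts in the cultures, and did not pass (edgeR adjusted p = 0.214).

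The test of the difference between the lines, the xenograft effect of KM12 minus that of LS174T, called 5 of the 10 keratins, all higher in KM12, against 5.94% of all genes called in that direction and 7.74% in the other. The difference was 2.34 ± 0.21 on the log2 scale for KRT8 (SE; edgeR adjusted p = 0.000954) and 2.16 ± 0.20 for KRT18 (edgeR adjusted p = 0.00106). It was 1.76 ± 0.35 for KRT19 (edgeR adjusted p = 0.0244), 5.91 ± 0.95 for KRT23 (edgeR adjusted p = 0.00715) and 7.31 ± 0.64 for KRT17 (edgeR adjusted p = 0.00371). KRT8, KRT18 and KRT19 fell in LS174T and did not pass in KM12, while KRT23 and KRT17 fell in LS174T and rose in KM12. KRT23 passed the filter only through the KM12 xenografts, and KRT6A only through the LS174T cultures. High levels there were thus a condition of testing these genes. The other 5 lay above 0 without passing: KRT20 at 1.39 ± 0.47 (edgeR adjusted p = 0.0842), KRT6A at 5.01 ± 1.40 (0.0662), KRT6B at 1.76 ± 0.82 (0.197), KRT80 at 1.22 ± 0.51 (0.186) and KRT7 at 0.31 ± 1.02 (0.883). The median over the 10 keratins was 1.96 and over all genes 0.00. Without either LS174T pair, none of the 5 calls held, with KRT8 at adjusted p of 0.0529 and 0.0559, KRT17 at 0.0743 and 0.0869 and KRT23 at 0.0687 and 0.0969, and edgeR called 33 or fewer of all genes. Without the KM12 parental pair the differences were 2.51 for KRT8, 2.04 for KRT18, 2.28 for KRT19 and 8.28 for KRT17. Only 1 KM12 pair was then left.

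**Figure D3:**
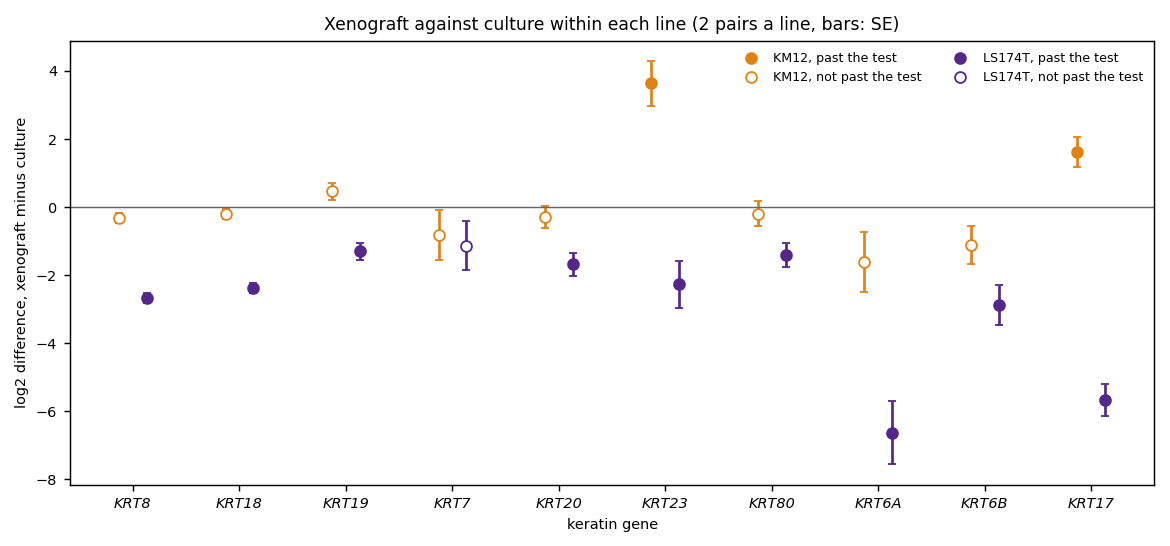
Log2 difference, xenograft minus culture, of each keratin in KM12 (orange) and LS174T (purple), each from 2 pairs with SE bars; filled points passed edgeR's test. LS174T points lie below 0 for all 10 keratins and 9 are filled, whereas in KM12 only KRT23 and KRT17 are filled and both are above 0. KRT23 passed the filter only through the KM12 xenografts and KRT6A only through the LS174T cultures.

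With the lines pooled, 1 of the 10 keratins passed, KRT6B, where 13.5% of all genes were lower in xenografts and 12.6% higher. KRT6B fell 4.46-fold (log2 difference -2.16 ± 0.59, SE, 4 pairs; edgeR adjusted p = 0.0437). It lay below its culture in all 4 pairs, but the call was lost without the KM12 knockout pair, the LS174T Dox(+) pair or the LS174T Dox(-) pair (edgeR adjusted p 0.107, 0.151 and 0.138) and without the block (0.507), and the ratio was 0.793 (95% counting interval 0.634 to 0.987) in the KM12 parental pair.

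Of 45 further keratins in the table, 9 passed the filter, at no more than 36.7 CPM in any library, a level reached by KRT10. In LS174T xenografts 5 of these 9 fell and 1 rose, where 22.5% of all genes fell and 23.4% rose. The mucosal keratin KRT13 had 0.145 and 0 CPM in the Dox(+) and Dox(-) xenografts, against 6.95 and 7.35 CPM in the cultures (edgeR adjusted p = 0.000819). KRT16, the usual type I partner of KRT6, had 0.0968 and 0 CPM in the xenografts, against 2.02 and 2.54 CPM in the cultures (edgeR adjusted p = 0.00156). KRT4, the partner of KRT13, had 0.290 and 0.0406 CPM in the xenografts, against 1.85 and 3.92 CPM in the cultures (edgeR adjusted p = 0.00646). KRT15, a keratin of basal cells, had 6.19 and 4.34 CPM in the xenografts, against 15.5 and 25.5 CPM in the cultures (edgeR adjusted p = 0.0164). In KM12 xenografts, where 14.3% of all genes rose and 15.5% fell, 1 rose, the epidermal keratin KRT10 (log2 difference 0.74 ± 0.19, SE; edgeR adjusted p = 0.0234), and 1 fell, the basal keratin KRT14 (-3.30 ± 0.76; edgeR adjusted p = 0.0177). Neither change was particular to KM12. KRT10 was also the 1 that rose in LS174T (0.64 ± 0.19, SE; edgeR adjusted p = 0.0267). KRT14 was the remaining 1 of the 5 that fell there (-5.51 ± 1.81, SE; edgeR adjusted p = 0.0417). Its level did not exceed 0.368 CPM in any library of that line. KRT14 passed the filter only through the KM12 cultures and KRT4 only through the LS174T cultures. KRT16 reached the filter's 1 CPM in cultures alone. High levels in culture were thus a condition of testing these genes. The difference between the lines passed for 3 of the 9, KRT13, KRT15 and KRT16, all higher in KM12.

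Transcripts of proteins that anchor keratin filaments were read next. Of 15 filament linkers and desmosome genes, 7 fell and 0 rose in LS174T xenografts, where 22.5% of all genes fell and 23.4% rose. In KM12 xenografts 6 fell and 1 rose, where 15.5% of all genes fell and 14.3% rose. These shares of all genes apply to the lists that follow as well. Plectin (PLEC), which ties filaments to hemidesmosomes and other structures, had 219 and 368 CPM in the LS174T Dox(+) and Dox(-) xenografts, against 831 and 1091 CPM in the cultures (edgeR adjusted p = 0.000325). In KM12 it had 759 and 744 CPM in the knockout and parental xenografts, against 2490 and 1748 CPM in the cultures (edgeR adjusted p = 0.00147). Periplakin (PPL) fell by 1.68 on the log2 scale in LS174T and by 2.80 in KM12 (edgeR adjusted p 0.000294 and 0.000133), and the fall differed between the lines (-1.12 ± 0.23, SE; edgeR adjusted p = 0.0184). DSC2, a desmosomal cadherin, was the 1 linker that rose in KM12.

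Of 26 genes of the stratified epithelial programme, 18 passed the filter. Of these, 8 fell and 0 rose in LS174T xenografts, against 22.5% and 23.4% of all genes, and 4 fell and 0 rose in KM12 xenografts, against 15.5% and 14.3% of all genes. SFN (stratifin, an epithelial 14-3-3 protein) had 75.8 and 40.8 CPM in the LS174T Dox(+) and Dox(-) xenografts, against 357 and 466 CPM in the cultures (edgeR adjusted p = 0.00178). The laminin chain LAMA3 had 17.1 and 34.6 CPM in the xenografts, against 126 and 175 CPM in the cultures (edgeR adjusted p = 0.00145). The difference between the lines passed for LAMA3 and SFN, both higher in KM12.

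Among 13 regulators of stress keratins, 5 rose and 3 fell in LS174T xenografts, against 23.4% and 22.5% of all genes, and 1 rose and 8 fell in KM12 xenografts, against 14.3% and 15.5% of all genes. FOSL1, an AP-1 subunit, had 16.3 and 18.1 CPM in the LS174T Dox(+) and Dox(-) xenografts, against 79.6 and 90.6 CPM in the cultures (edgeR adjusted p = 0.000648). In KM12 FOSL1 had 29.1 and 56.2 CPM in the knockout and parental xenografts, against 199 and 191 CPM in the cultures (edgeR adjusted p = 0.00168). FOSL1 fell in both lines, and KRT17 fell in LS174T and rose in KM12. A link between them was not tested. JUN, another AP-1 subunit, had 552 and 766 CPM in the LS174T xenografts, against 178 and 225 CPM in the cultures (edgeR adjusted p = 0.00016), and its xenograft effect was lower in KM12 than in LS174T (log2 -2.54 ± 0.20, SE; edgeR adjusted p = 0.000668).

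Of 16 gut regulators, 5 rose and 3 fell in LS174T xenografts, near the 23.4% and 22.5% of all genes, and 1 rose and 4 fell in KM12 xenografts, against 14.3% and 15.5% of all genes. The epithelial factor ELF3 had 383 and 861 CPM in the LS174T Dox(+) and Dox(-) xenografts, against 141 and 197 CPM in the cultures (edgeR adjusted p = 0.000479), and KLF4, a factor of differentiated gut epithelium, had 111 and 224 CPM, against 63.6 and 75.2 CPM (edgeR adjusted p = 0.00253). Of the 10 colorectal markers, 2 rose and 0 fell in LS174T xenografts, near the share of all genes. They were GPA33 and CDX2, which rose by 1.38 ± 0.19 and 0.89 ± 0.18 on the log2 scale (SE; edgeR adjusted p 0.00101 and 0.00472). GPA33 also rose in KM12 xenografts, by 1.60 ± 0.19 (SE; edgeR adjusted p = 0.00169).

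KRT7 was the keratin that separated the lines. With KM12 set against LS174T in 4 pairs matched for GNAS state and environment, 1 of the 10 keratins rose and 0 fell, where 14.8% of all genes were higher and 16.7% lower in KM12. KRT7 had 349 and 77.2 CPM in the KM12 knockout and parental xenografts, against 11.7 and 9.68 CPM in the LS174T Dox(-) and Dox(+) xenografts. In the cultures it had 271 and 315 CPM in KM12 knockout and parental cells, against 23.1 and 23.7 CPM in LS174T Dox(-) and Dox(+) cells. All KM12 libraries lay above all LS174T libraries, by 13.8-fold in the fit (log2 difference 3.79 ± 0.34, SE; edgeR adjusted p = 0.00167). The ratio was lowest, 7.98, in the pair that holds the KM12 parental xenograft, and without that pair the log2 difference was 4.04 (edgeR adjusted p = 0.00781). KRT20 showed no such separation (log2 difference 0.08 ± 0.46, SE; edgeR adjusted p = 0.906).

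For the core keratins the order of the lines depended on the environment. KRT8 in KM12 stood at 0.409 and 0.308 of LS174T in the cultures with active and opposite GNAS state, and at 1.96 and 1.66 times LS174T in the matching xenografts. KRT18 stood at 0.374 and 0.288 of LS174T in the cultures, and at 1.92 and 1.13 times in the xenografts. KRT17 stood at 0.0338 and 0.0107 of LS174T in the cultures, and at 2.92 and 3.33 times in the xenografts. Active means KM12 parental and LS174T Dox(+), and opposite means KM12 knockout and LS174T Dox(-). Pooled over environments none of the 3 passed (edgeR adjusted p 0.473 to 0.694). Other type II keratins that passed between the lines were KRT75, with 0 to 0.114 CPM in KM12 and 11.7 to 19.2 CPM in LS174T (edgeR adjusted p = 0.000906), KRT86 (edgeR adjusted p = 0.00996) and KRT4 (edgeR adjusted p = 0.0343). These were lower in KM12 and passed the filter only through LS174T libraries. The type I keratin KRT14 was higher in KM12 (edgeR adjusted p = 0.0373) and passed the filter only through the KM12 cultures.

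Over the 4 pairs of GNAS state, edgeR's test called 0 of the 10 keratins and 0 of all genes, a background of 0%. At an unadjusted p below 0.05 it found 3 of the 10 keratins, KRT20, KRT19 and KRT8, and 977 of the 16070 genes, and DESeq2 called 2 of the 10, KRT20 and KRT19. Knockout cells of KM12 had 18.6 CPM of KRT20 in the xenograft, against 2.23 CPM in the parental xenograft, and 16.1 CPM in the culture, against 4.26 CPM in the parental culture. LS174T had 2.37 CPM in the Dox(+) xenograft, against 6.05 CPM in the Dox(-) xenograft, and 8.50 CPM in the Dox(+) culture, against 17.7 CPM in the Dox(-) culture. In each pair the library with the lower GNAS level had the higher KRT20 level. The fitted log2 difference, active minus opposite state, was -1.81 ± 0.33 (SE, 4 pairs; edgeR adjusted p = 0.776; DESeq2 adjusted p = 0.00056).

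Within KM12 alone the KRT20 log2 difference, knockout minus parental, was 2.45 ± 0.34 (SE, 2 pairs; edgeR adjusted p = 0.207; DESeq2 adjusted p = 4.58e-06). Without the KM12 xenograft pair, which holds the library with the high fibroblast sum, the value from the remaining culture pair was 1.92. This compares 1 library with 1. Within LS174T the difference, Dox(+) minus Dox(-), was -1.19 ± 0.33 (SE; edgeR adjusted p = 0.936). In KM12 the knockout libraries did not overlap the parental ones, whereas in LS174T the Dox(+) and Dox(-) ranges overlapped.

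The 250 bases upstream of the KRT20 start are shown because KRT20 is the keratin with the smallest p for GNAS state (RefSeq, GRCh38.p14, chr17:40885243-40885492, minus strand). Capitals mark matches, on either strand, to TTTAT, the core of CDX factor motifs, and to GGGNGTGG, a KLF-type motif.
KRT20: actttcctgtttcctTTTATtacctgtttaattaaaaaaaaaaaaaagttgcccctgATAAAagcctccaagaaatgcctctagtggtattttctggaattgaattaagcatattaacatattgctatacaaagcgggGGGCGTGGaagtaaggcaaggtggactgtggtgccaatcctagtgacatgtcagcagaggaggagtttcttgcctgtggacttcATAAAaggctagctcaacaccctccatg

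This window holds 3 matches to TTTAT or its reverse complement and 1 match to GGGNGTGG, which lies 112 bases before the start. At least 1 match occurs in 32.7% of 35116 promoter windows of the same length for TTTAT and in 15.7% for GGGNGTGG. The letters of the cAMP response element, TGACGTCA, were not in the KRT20 window and occur in 1.65% of all windows. Those of the AP-1 motif TGANTCA were not in it either and occur in 6.57%. The TATA motif TATAAA was likewise absent and occurs in 10.7%.

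KRT19 followed KRT20 in sign in all 4 pairs. It stood at 2.53 times the parental level in the KM12 knockout xenograft and 1.24 times in the knockout culture, and at 0.576 of Dox(-) in the LS174T Dox(+) xenograft and 0.712 in the Dox(+) culture. The fitted log2 difference, active minus opposite state, was -0.73 ± 0.17 (SE, 4 pairs; edgeR adjusted p = 0.776; DESeq2 adjusted p = 0.0192). KRT8 and KRT18 stood between 0.705 and 0.825 of Dox(-) in the LS174T Dox(+) libraries, while in KM12 the knockout stood at 1.20 and 0.780 of parental in the xenografts and at 0.956 and 0.933 in the cultures.

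KRT6B went the other way in KM12. It had 4 counts in the knockout xenograft, against 122 counts in the parental xenograft, and 46 counts in the knockout culture, against 256 counts in the parental culture. The ratios were 0.0278 and 0.153, and the log2 difference was -3.55 ± 0.58 (SE, 2 pairs; edgeR adjusted p = 0.271; DESeq2 adjusted p = 0.000304). In LS174T the KRT6B ratio, Dox(+) over Dox(-), was 1.84 (95% counting interval 0.814 to 4.35) in the xenografts and 1.01 in the cultures. The GNAS state effect of KRT6B in KM12 minus that in LS174T was 3.23 ± 0.81 on the log2 scale and did not pass (edgeR adjusted p = 0.965). That test called 0 of the 10 keratins and 0.00622% of all genes, with 3 of the 10 and 648 of all genes at an unadjusted p below 0.05 and 0 of the 10 by DESeq2. KRT6A had 30 counts each in the knockout and parental cultures, so the paralogs did not move together there. In the xenografts KRT6A had 1 count in the knockout, against 12 counts in the parental, the same direction as KRT6B. That ratio was 0.0706 (95% counting interval 0.00165 to 0.477). The counts are few, and both genes share sequence.

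The KM12 ratios of KRT7 lay on opposite sides of 1. The ratio, knockout over parental, was 4.53 in the xenografts (95% counting interval 4.27 to 4.80) and 0.859 in the cultures, against Dox(+) over Dox(-) ratios of 0.828 and 1.03 in LS174T. Within KM12, edgeR called 0 of the 10 keratins and 0.0124% of all genes for the knockout, with 3 of the 10 and 892 of all genes at an unadjusted p below 0.05 and 2 of the 10 by DESeq2. Within LS174T it called 0 of the 10 and 0% of all genes for Dox, with 4 of the 10 and 717 of all genes at an unadjusted p below 0.05 and 0 of the 10 by DESeq2. None of the 45 further keratins, the filament linkers, the gut regulators, the stratified genes or the stress keratin regulators that could be tested passed for GNAS state.

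**Figure D4:**
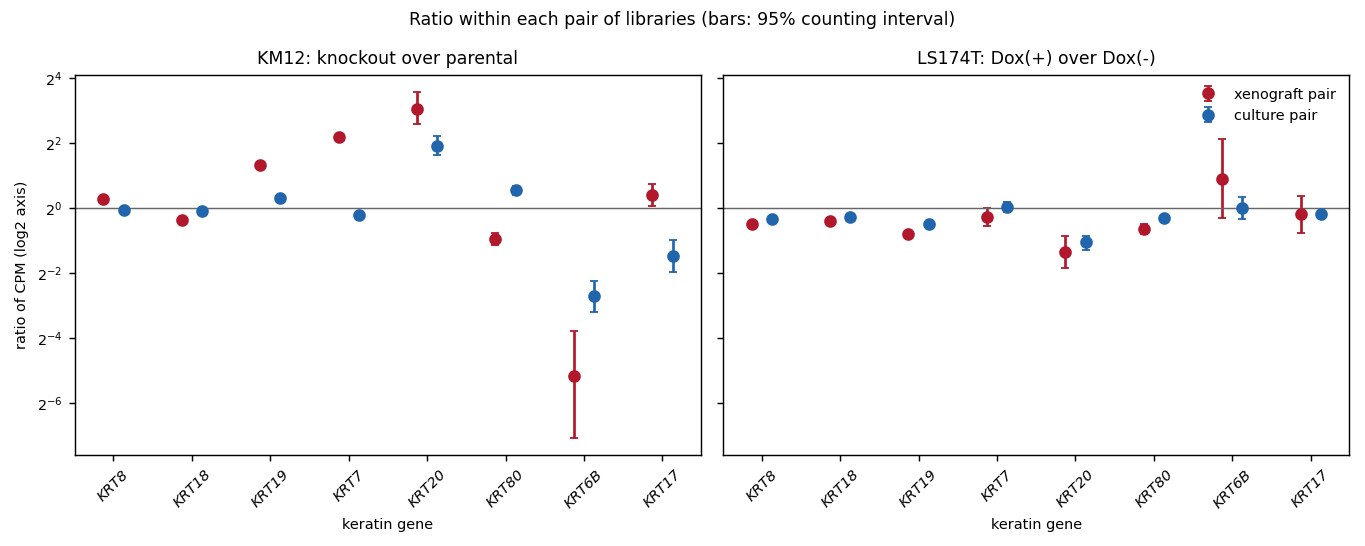
Ratio of CPM within each pair, knockout over parental in KM12 (left) and Dox(+) over Dox(-) in LS174T (right), for the 8 keratins with enough counts, xenograft pairs in red and culture pairs in blue, with 95% counting intervals on a log2 axis. KRT20 lies above 1 in both KM12 pairs and below 1 in both LS174T pairs, and KRT6B lies far below 1 in both KM12 pairs.

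The genes whose log2 CPM followed each keratin most closely over the 8 libraries were sought among 11401 genes that averaged 5 CPM or more. The points share their line and environment, so these correlations describe the 8 libraries and carry no test. KRT8 and KRT18 had the same closest gene, ZYX (zyxin, a focal adhesion protein), with Pearson r of 0.99 for each, and a Pearson r of 0.98 with each other. KRT19 was closest to FARP2 (0.94), KRT7 to PSMD9 (0.99), KRT80 to SBF1 (0.99) and KRT17 to FAS, the death receptor (0.98). KRT20 was closest to IL4R, the interleukin receptor chain (0.97), with CTSE, the protease cathepsin E, after it (0.91). KRT23, KRT6A and KRT6B were below that mean level and were not compared.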

How the data were processed

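RNA was sequenced from 8 libraries in 8 groups of 1. The only measurement used was the authors' deposited table of raw counts over human genes. Per the submitters' processing notes, STAR 2.7.2b and HTSeq 0.11.0 were used and the builds hg38 and GRCm39 named. The annotation release, the strand setting and the handling of mouse reads are not given in the sources used here. Symbols, coordinates and transcripts came from GENCODE 29, promoters from RefSeq, whose table had entries for 2 of the 10 keratins.

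The 16070 genes reaching 1 unscaled CPM in 2 or more libraries entered the tests, and counts were scaled with TMM factors. edgeR 4.0.16 (robust quasi-likelihood F test, limma 3.58.1, R 4.3.3) was fitted over all tested genes with Benjamini-Hochberg adjustment at 0.05. Each of the 3 main comparisons had the 4 pairs matched on the other factors as a block (3 residual degrees of freedom). Effects within a line and their differences used 2 residual degrees of freedom, and the within-line effects were added after the data were seen. SE was obtained from the size of the log2 difference and the test's F. Pair ratios carry exact 95% binomial counting intervals, with a floor of 3 counts against 0. Likeness used log2 CPM with a prior count of 2. The fits were tested on simulated data with 200 changed genes. DESeq2 1.42.0 on the deposited counts, other scaling, no filter, no block and leaving out each pair were tried. Members, gene lists and tests were chosen with earlier results of these data known. The text names every member and, per list, at most 4 genes with the smallest p, and 1 gene that this rule names is not reported here.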

Additional observations from a re-analysis of the deposited data

Results flagged for a closer look

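The xenograft effect differed between KM12 and LS174T in the test of that difference for 5 keratins. On the log2 scale, KM12 minus LS174T, the differences were 2.34 for KRT8, 2.16 for KRT18, 1.76 for KRT19, 5.91 for KRT23 and 7.31 for KRT17. For KRT23 and KRT17 the level was higher in the xenograft of both KM12 pairs and lower in the xenograft of both LS174T pairs. KRT23 passed the filter only through the KM12 xenografts. KRT7 stands out by GNAS state and environment. By its ratios, the library of the active state had the lower KRT7 level in both xenograft pairs and the higher one in both culture pairs, and the mean log2 ratio of the cultures minus that of the xenografts was 1.35. In LS174T the ratio, Dox(+) over Dox(-), was 0.828 in the xenografts and 1.03 in the cultures (95% counting interval 0.924 to 1.14), so no higher level is shown in the culture pair. Most of the 1.35 comes from KM12, where the parental xenograft, with summed fibroblast markers of 263 CPM, had the low KRT7 level. This difference was not tested.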

How the results depend on the processing

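Of 692 alternative values, 579 kept their direction and their side of the threshold, 55 newly passed or gained, 27 lost their call or shrank, and 31 changed sign. With 1 library per group the replicate spread is unknown, and leaving out a pair leaves 1 pair fewer to estimate it. KRT23, KRT6A and KRT6B rest on few counts, and KRT23 or KRT6A fell under the filter in some smaller sets and were then not tested. No scaling moved the median of all genes by more than 0.1 on the log2 scale, and edgeR with DESeq2-type size factors gave the same number of called keratins in all 9 comparisons.

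The number of keratins called went to 6 by DESeq2 and 0 with no replicate block for xenograft against culture, with 0 to 3 when pairs were left out. It was 2 by DESeq2 for KM12 against LS174T (1 to 3), and 2 by DESeq2 and 2 with no filter for GNAS state (0 to 0). The xenograft difference between lines gave 8 with no filter (0 to 8), the GNAS difference 1 with no filter (0 to 4), and KM12 xenograft minus culture 5 with no filter (1 to 5). LS174T xenograft minus culture gave 8 with no replicate block and 3 to 9 with pairs left out. The KM12 knockout gave 2 by DESeq2 and 3 with no filter (0 to 5), and LS174T Dox 2 with no filter (0 to 1). The cause was not tested.

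Over all genes, xenograft against culture called 4189, with no replicate block 2500 and with pairs left out 11 to 2613. KM12 against LS174T called 5069 (2726 to 4152). GNAS state called 0, by DESeq2 57 and with no filter 281 (0 to 1). The xenograft difference called 2198, with no filter 3428 (17 to 3006), and LS174T and KM12 xenografts called 7381 (1081 to 8674) and 4783 (2652 to 3886). The GNAS difference called 1, by DESeq2 5, with no filter 123 and with no replicate block 0 (0 to 715). The KM12 knockout called 2, by DESeq2 65, with no filter 365 and with no replicate block 0 (0 to 1164), and LS174T Dox 0, by DESeq2 13 and with no filter 101 (0 to 79).

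Sign changes without the block were -0.27 for KRT6A and -0.18 for KRT17 by GNAS state, -0.080 for KRT17 in the GNAS difference and 0.27 for KRT17 by KM12 knockout. With pairs left out, log2 values that crossed 0 were as follows. For KM12 against LS174T, KRT6B ran from -0.59 to 1.11, KRT20 from -0.42 to 0.42, KRT8 from -0.79 to 0.13 and KRT19 from -0.67 to 0.024. For GNAS state, KRT6A ran from -0.32 to 0.35, KRT17 from -0.27 to 0.27, KRT7 from -0.82 to 0.016, KRT18 from -0.20 to 0.060 and KRT80 from -0.50 to 0.0053. For the GNAS difference, KRT17 ran from -0.19 to 1.66, KRT19 from -0.69 to 0.33, KRT7 from -2.07 to 0.33 and KRT80 from -0.066 to 1.42. For KM12 xenograft minus culture, KRT7 ran from -2.02 to 0.38, KRT20 from -0.92 to 0.23, KRT19 from -0.049 to 0.98 and KRT80 from -0.93 to 0.55. For the KM12 knockout, KRT17 ran from -1.46 to 0.40, KRT8 from -0.064 to 0.27, KRT7 from -0.22 to 2.19 and KRT80 from -0.94 to 0.55. For LS174T Dox, KRT7 ran from -0.28 to 0.034 and KRT23 from -0.066 to 2.18. KRT7 in the xenograft difference ran from -0.89, where it passed, to 1.51. None of the results listed for sign changes with pairs left out passed with all pairs in.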
